A study of Mus musculus with 19 samples.

Results

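The glycolysis genes examined here are 10, chosen by symbol: the glucose transporter Slc2a1 and the enzymes Hk2, Gpi1, Pfkl, Pfkp, Aldoa, Pgk1, Eno1, Pkm and Ldha. The deposited table held 21685 gene symbols, all 10 genes were among them, and all 10 passed the filter on low values. Loss of Lin28a was followed by lower Slc2a1 and higher Pfkp mRNA, whether Trim71 was present or absent. Among the other 8 genes the largest difference in any comparison was 0.29 log2 units, for Gpi1.

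Mouse embryonic stem cells (male, C57BL/6) were grown with fetal calf serum and leukaemia inhibitory factor and sorted with magnetic beads for SSEA-1, a surface antigen of undifferentiated cells. The study concerned repression of the microRNA let-7 by TRIM71, an RNA-binding ubiquitin ligase. LIN28A is an RNA-binding protein known to block let-7 maturation. Of the 4 genotype names, the part before the hyphen gives Trim71 and the part after it Lin28a. WT-WT is Trimfl/fl - Lin28afl/fl, KO-WT is Trim-/- - Lin28afl/fl, WT-KO is Trimfl/fl - Lin28a-/- and KO-KO is Trim-/- - Lin28a-/-, so "WT" means floxed alleles that were not deleted. Per the labels, Trim71 was deleted with 500 nM 4-hydroxytamoxifen (4-OHT) for 2 days, with harvest no sooner than 7 days afterwards. The labels do not say whether cells with intact Trim71 also received the drug. Values of 4 WT-WT, 4 KO-WT, 5 WT-KO and 5 KO-KO libraries were used. KO-WT replicate 5 differed from the average of its 4 fellow libraries by at most 1.5e-08 and was left out. The libraries came from 6 harvest days, of which 5 remained after that exclusion, and from 4 clones. Lin28a-intact libraries came from clones 1 and E3 and Lin28a-null libraries from clones 1-4 and C1, so Lin28a genotype and clone cannot be told apart. Nothing in the labels says that libraries of a genotype came from separate derivations, so p-values measure the spread between these libraries.

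Glycolysis turns 1 glucose into pyruvate in the cytosol and, with lactate dehydrogenase, on to lactate. Slc2a1 (GLUT1) carries glucose across the plasma membrane, hexokinase traps it as a phosphate, and phosphofructokinase commits it to the pathway. Pluripotent stem cells are known for a high glycolytic rate. Several steps are served by isozymes from separate genes that differ in kinetics and regulation, and many genes of the pathway are textbook targets of the hypoxia-inducible factor HIF and of MYC.

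Values are log2 normalised expression as deposited, and read depth is unknown. Differences between harvest days had been removed before deposit: over all genes the day term reached 1.7e-08 at most, and 1.33 when days were shuffled within genotype. Trim71 ranged from 8.77 to 9.55 in the Trim71-null libraries and from 10.04 to 11.00 in the others. Lin28a ranged from 8.21 to 8.57 in the Lin28a-null libraries and from 9.74 to 10.26 in the others. Stem cell identity was checked on 7 markers, all of which were measured. Their summed level, after raising 2 to each value, lay between 23968 and 26055 in Lin28a-intact libraries and between 30307 and 33564 in Lin28a-null ones. A gene is called where the Benjamini-Hochberg adjusted p of limma, over all 14988 tested genes and with harvest day in the fit, is under 0.05. Differences are given as the mutant minus its control with the standard error (SE). Levels are compared between genotypes within a gene and never between genes, because the values are not known to be scaled by transcript length.

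Slc2a1 was the member that fell most after Lin28a loss. Its level was 11.48, 11.63, 11.37 and 11.54 in WT-WT replicates 1 to 4. In KO-WT it was 11.82, 11.76, 11.60 and 11.71. In WT-KO it was 10.65, 10.88, 10.72, 10.90 and 10.76, and in KO-KO 11.08, 10.73, 10.83, 11.07 and 10.92. Every Lin28a-null library lay below every Lin28a-intact library, with 11.08 as the highest null value and 11.37 as the lowest intact one. With Trim71 intact the difference was -0.72 ± 0.0808 (SE; limma adjusted p = 3.67e-06), which is 0.61 times the WT-WT level. Without Trim71 it was -0.80 ± 0.0808 (limma adjusted p = 1.26e-06), or 0.58 times the KO-WT level. All 4 same-day pairs fell in either comparison. The call held in the clones E3 and C1 alone (-0.67 and -0.85) and, with Trim71 intact, in clones 1 and 1-4 alone (-0.80). Without Trim71 the latter clones hold 1 KO-WT library, replicate 4, and gave -0.71. The call also held in every other alternative tried.

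Trim71 loss gave the opposite sign for Slc2a1 but no call. With Lin28a intact the difference was 0.22 ± 0.0873, higher in 3 of 3 pairs, and not called (limma adjusted p = 0.107). In Lin28a-null cells it was 0.15 ± 0.0748, higher in 4 of 5 pairs, with a limma adjusted p of 0.265. The order of mean levels was thus KO-WT at 11.72, WT-WT at 11.50, KO-KO at 10.93 and WT-KO at 10.78. The first pair of neighbours and the last pair of neighbours overlapped in their libraries, while WT-WT and KO-KO did not. The KO-WT and WT-WT pair was called when day was left out of the fit, at the same 0.22.

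The Slc2a1 result moved with markers of other cell types, whose part in it was not tested. In bulk samples, fewer cells of a type and less RNA per cell cannot be told apart. All 8 trophectoderm markers were in the table and 6 passed the filter, while the defining factors Cdx2 and Elf5 were below it in these libraries. Their summed level was between 4258 and 5712 in Lin28a-intact libraries and between 961 and 1311 in Lin28a-null ones. Counts of markers that fell or rose are of genes called after Lin28a loss with Trim71 intact. In that comparison 22.0% of all tested genes were called lower and 20.3% higher. Of the 6 trophectoderm markers 4 fell: Krt8 by 4.22 log2 units, Krt18 by 4.20, Hand1 by 2.88 and Gata3 by 1.47. Of 7 primitive endoderm markers 5 were tested, and all 5 fell, among them Dab2 by 2.78 and Gata4 by 1.60, with Sox17 and Foxa2 below the filter. That list summed to between 262 and 475 in Lin28a-intact libraries and to between 80.6 and 130 in Lin28a-null ones. Of the 7 stem cell markers 5 rose, including Nanog by 0.86 and Esrrb by 0.63. Of 8 fibroblast markers 3 were in the table and 2 fell, summing to between 87.3 and 118 in Lin28a-intact and to between 63.8 and 79.9 in Lin28a-null libraries. Of 4 neural markers 3 were tested and 2 rose, summing to between 246 and 370 and to between 457 and 626. Of 4 mesoderm markers 2 were tested and 1 (Kdr) fell by 0.27, with T and Mixl1 below the filter and sums of 71.5 to 87.0 and 69.1 to 78.4.

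**Figure D1:**
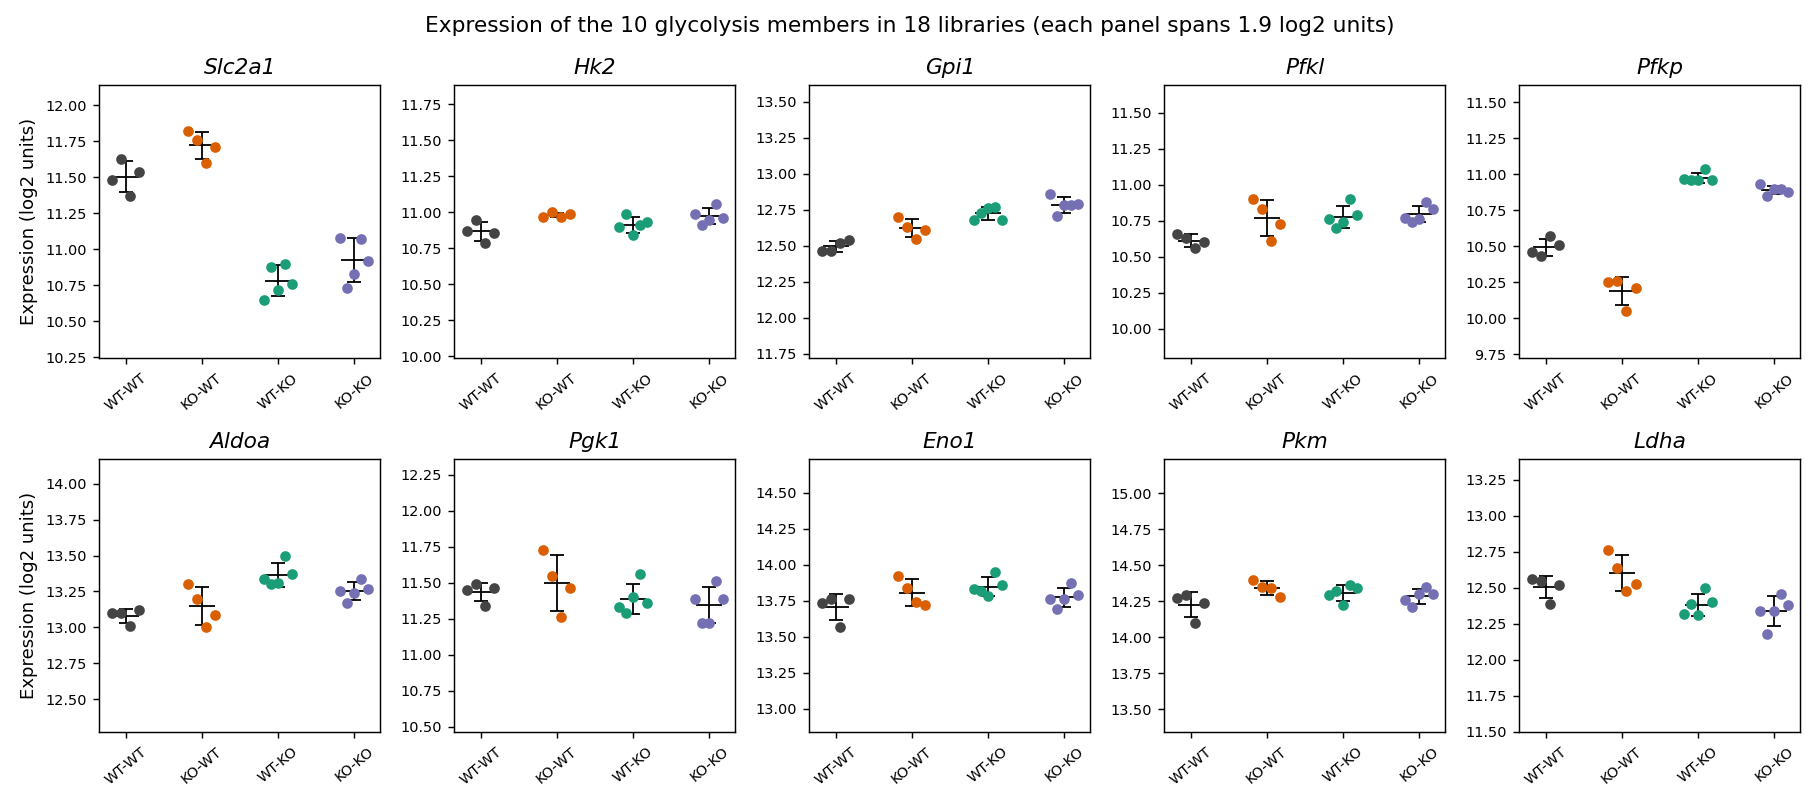
Level of each member in the 18 libraries, on a log2 scale with panels of equal height; points are libraries, horizontal lines are genotype means and bars are 1 SD (n = 4, 4, 5 and 5). Slc2a1 separates Lin28a-null (10.65 to 11.08) from Lin28a-intact libraries (11.37 to 11.82), Pfkp separates them the other way, and the remaining panels show smaller shifts.

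Slc2a3 (GLUT3), a high-affinity glucose transporter known from neurons, also fell with Lin28a loss. Mean levels were 13.27 ± 0.0368 for WT-WT and 13.42 ± 0.0516 for KO-WT (SD, n = 4 each). The Lin28a-null means were 12.70 ± 0.0637 for WT-KO and 12.98 ± 0.0571 for KO-KO (SD, n = 5 each). Lin28a loss changed it by -0.57 ± 0.0468 with Trim71 intact (limma adjusted p = 1.36e-07) and by -0.44 ± 0.0468 without Trim71 (limma adjusted p = 2.25e-06). Slc2a3 rose by 0.28 after Trim71 loss in Lin28a-null cells (limma adjusted p = 0.00107), a call lost with only clones E3 and C1 or only the 3 complete days, those that hold all 4 genotypes. The insulin-responsive carrier Slc2a4 (GLUT4) rose after Lin28a loss, by 0.42 ± 0.0808 with Trim71 intact (limma adjusted p = 0.000638) and by 0.23 without it (limma adjusted p = 0.0288). After Trim71 loss with Lin28a intact Slc2a4 rose by 0.33 (limma adjusted p = 0.0263), a call lost in 10 of 30 alternatives. The group means of Slc2a4, 3.89 to 4.45, lay close to the filter. Slc2a8, of the same gene family, lay further above the filter. Its means were 6.90 for WT-WT, 7.08 for KO-WT, 7.21 for WT-KO and 7.19 for KO-KO. For Lin28a loss its unadjusted limma p was under 0.05 with Trim71 intact but not without Trim71. So Slc2a1 and Slc2a3 fell with Lin28a loss, Slc2a8 was higher with Trim71 intact, and the rise of Slc2a4 rests on low levels.

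Because the study concerned let-7, the 3′ untranslated regions were searched for the complement of its seed. The mature microRNA, from RefSeq on GRCm38.p6, and the stretch of Slc2a3 around its match, from GENCODE vM21, are shown with the seed (bases 2 to 8) and its complement in capitals.
mmu-let-7a-5p: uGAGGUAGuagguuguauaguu
Slc2a3: tgaggttggaaggctCTACCTCactacagc
CTACCTC was in the 3′ untranslated region of 0 of 10 members, against 10.6% of 12504 tested genes that had such a region. In the members these regions were 183 (Aldoa) to 2285 bases (Hk2) long, and the shares were not adjusted for length. Among 21 other glycolysis genes 4 held it: Slc2a3, Hkdc1, Aldoc and Bsg. After Lin28a loss with Trim71 intact, Slc2a3 and Bsg fell by 0.57 and 0.24, Hkdc1 fell by 1.06 and Aldoc rose by 0.50. A match describes letters in 1 annotated transcript per gene and is not a measured site.

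Hk2 encodes hexokinase 2, a mitochondrion-associated form of the trapping enzyme. Its level was 10.87, 10.95, 10.79 and 10.86 in WT-WT and 10.97, 11.00, 10.97 and 10.99 in KO-WT. In WT-KO it was 10.90, 10.99, 10.84, 10.91 and 10.93, and in KO-KO 10.99, 10.91, 10.95, 11.06 and 10.96. The KO-WT libraries all lay above the WT-WT libraries, by a narrow margin, and all other genotype pairs overlapped. No difference was called: Trim71 loss gave 0.12 ± 0.0485 with Lin28a intact (95% interval 0.01 to 0.22; limma adjusted p = 0.124), and Lin28a loss gave 0.05 (interval -0.05 to 0.14) and -0.01 (interval -0.10 to 0.09). The Trim71 difference was called when day was left out of the fit. Loss of both gave 0.11 (limma adjusted p = 0.058) and was called in 8 of 31 alternatives, among them both other scalings and leaving out WT-WT replicate 2. Hk1, the form of most tissues, was lower by 0.12 and 0.14 after Lin28a loss, also without a call.

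Gpi1, which turns glucose 6-phosphate into fructose 6-phosphate, rose with Lin28a loss. Its level was 12.46, 12.46, 12.52 and 12.54 in WT-WT and 12.70, 12.63, 12.55 and 12.61 in KO-WT. It was 12.68, 12.73, 12.76, 12.77 and 12.68 in WT-KO and 12.86, 12.71, 12.78, 12.78 and 12.79 in KO-KO. The WT-WT libraries were the lowest, and no other genotype overlapped with them. Lin28a loss raised Gpi1 by 0.23 ± 0.0444 with Trim71 intact (limma adjusted p = 0.00068) and by 0.16 ± 0.0444 without it (limma adjusted p = 0.0082), in 4 of 4 pairs each. The latter call was lost in clones E3 and C1 alone, at 0.13 (limma adjusted p = 0.172). Loss of both genes raised it by 0.29 ± 0.0444 (limma adjusted p = 8.32e-05). Trim71 loss gave 0.13 with Lin28a intact, not called (limma adjusted p = 0.0949) unless day was left out of the fit.

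Phosphofructokinase, the committed step, is built from liver (Pfkl), platelet (Pfkp) and muscle (Pfkm) subunits, and these behaved differently. Pfkp was 10.46, 10.43, 10.57 and 10.51 in WT-WT and 10.25, 10.26, 10.05 and 10.21 in KO-WT. It was 10.97, 10.96, 10.96, 11.04 and 10.96 in WT-KO and 10.93, 10.85, 10.90, 10.90 and 10.88 in KO-KO. No 2 genotypes overlapped, and the order from low to high was KO-WT, WT-WT, KO-KO and WT-KO. This was the reverse of the order of Slc2a1. Lin28a loss raised Pfkp by 0.48 ± 0.0483 with Trim71 intact (1.40-fold; limma adjusted p = 1.05e-06) and by 0.70 ± 0.0483 without it (1.63-fold; limma adjusted p = 1.55e-08). The same values in clones E3 and C1 alone were 0.48 and 0.70, and in clones 1 and 1-4 alone 0.48 and 0.69. The value of 0.69 rests on 1 KO-WT library.

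Pfkp was also the 1 member called after Trim71 loss. With Lin28a intact it fell by 0.30 ± 0.0522 log2 units to 0.81 times the WT-WT level, in 3 of 3 pairs (limma adjusted p = 0.00292). The call was lost in clones E3 and C1 alone, at -0.32 (limma adjusted p = 0.154), and when the Lin28a-null libraries were left out, at -0.33 (limma adjusted p = 0.12). In Lin28a-null cells the difference was -0.09 ± 0.0447, lower in 5 of 5 pairs and without overlap, but not called (limma adjusted p = 0.266). The test of the difference between these effects, the interaction, gave 0.22 ± 0.0687 with an unadjusted limma p of 0.00604 and an adjusted p of 0.228. So the effect of Trim71 loss on Pfkp was not shown to differ between Lin28a states.

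Pfkl shifted much less. It was 10.66, 10.63, 10.56 and 10.60 in WT-WT, 10.90, 10.83, 10.61 and 10.73 in KO-WT, 10.76, 10.70, 10.74, 10.90 and 10.79 in WT-KO and 10.77, 10.74, 10.76, 10.88 and 10.83 in KO-KO. The WT-WT libraries sat at the low end, and both Lin28a-null genotypes lay above them. Lin28a loss with Trim71 intact gave 0.16 ± 0.0592 (limma adjusted p = 0.0342), a call that was lost in 9 of 31 alternatives. These included the correction for GC content and length (0.08), the clones E3 and C1 alone, and leaving out WT-WT replicate 2, 3 or 4 or WT-KO replicate 1, 4 or 5. Without Trim71 the difference was 0.03 ± 0.0592. Loss of both gave 0.18 (limma adjusted p = 0.02), a call lost in 6 of 31 alternatives, with 0.10 after the GC content and length correction and losses without WT-WT replicate 3 or 4 or KO-KO replicate 4 or 5. Trim71 loss with Lin28a intact gave 0.15 (limma adjusted p = 0.125), called without the day term and without KO-WT replicate 3. Pfkm, the muscle subunit, fell by 0.53 ± 0.0651 and 0.63 ± 0.0651 with and without Trim71 (limma adjusted p = 9.82e-06 and 1.59e-06).

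The balance between subunit mRNAs was followed as a log2 ratio in each library, set to 0 at the WT-WT mean. Pfkp over Pfkl was -0.46 ± 0.0525 in KO-WT (SD, n = 4), 0.32 ± 0.047 in WT-KO and 0.22 ± 0.0625 in KO-KO (SD, n = 5 each), and the lowest Lin28a-null library, at 0.14, lay just above the highest WT-WT library, at 0.13. Pfkp over Pfkm was -0.36 ± 0.176 in KO-WT (SD, n = 4), 1.01 ± 0.0919 in WT-KO and 0.97 ± 0.112 in KO-KO, with 0.82 as the lowest Lin28a-null value and 0.08 as the highest WT-WT value. Relative to the WT-WT mean, the platelet to muscle ratio was thus higher in all Lin28a-null and lower in all KO-WT libraries. These ratios are descriptions, chosen after the single genes had been seen, and carry no test.

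**Figure D2:**
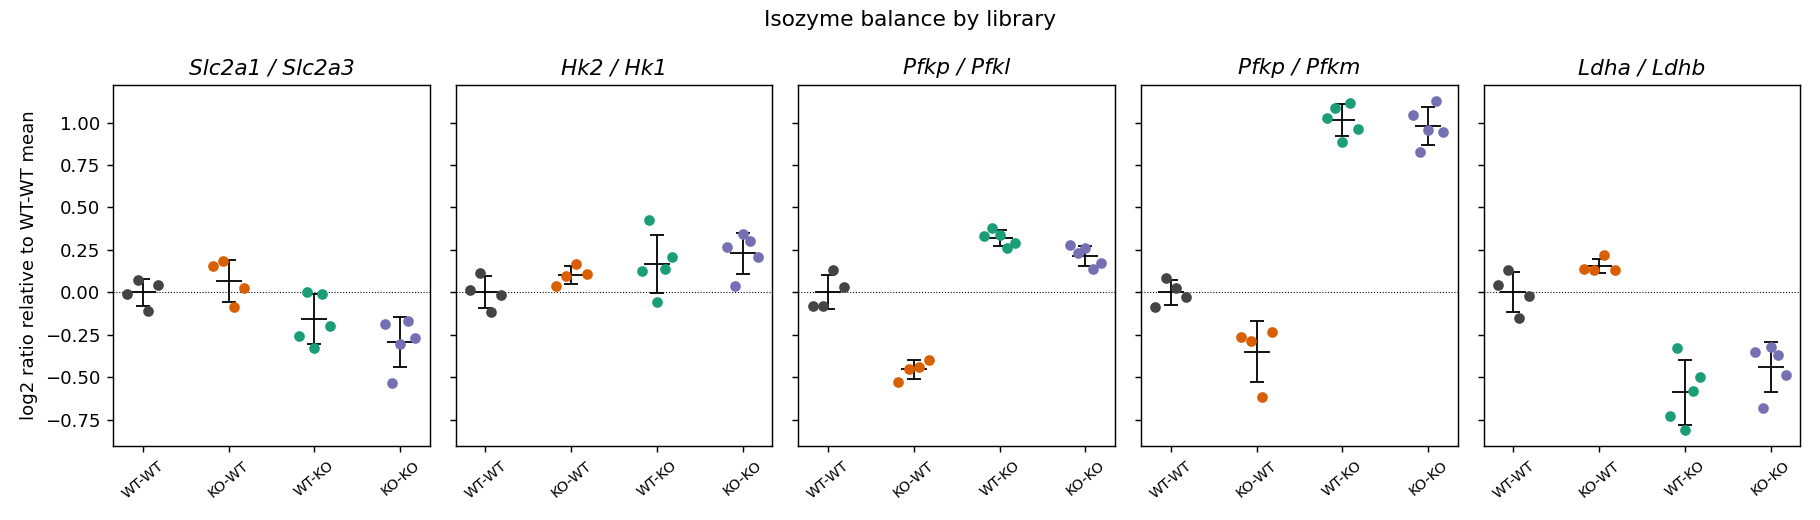
Log2 ratio of paired isozymes in each library, relative to the WT-WT mean; points are libraries, lines are genotype means and bars are 1 SD. Pfkp over Pfkm lies between 0.82 and 1.12 in Lin28a-null libraries, Pfkp over Pfkl lies lowest in KO-WT (-0.53 to -0.40), and Ldha over Ldhb lies between -0.81 and -0.32 in Lin28a-null libraries.

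Aldoa, the aldolase that splits fructose 1,6-bisphosphate, was called higher after Lin28a loss with Trim71 intact. Its level was 13.10, 13.10, 13.01 and 13.12 in WT-WT, 13.30, 13.20, 13.00 and 13.09 in KO-WT, 13.34, 13.30, 13.31, 13.50 and 13.37 in WT-KO and 13.25, 13.17, 13.24, 13.34 and 13.27 in KO-KO. All WT-KO and KO-KO libraries were above all WT-WT libraries, and KO-WT spanned most of the range. The difference was 0.28 ± 0.0622 with Trim71 intact (limma adjusted p = 0.00168), in 4 of 4 pairs, and the call was lost only in clones E3 and C1 alone (0.32). Without Trim71 it was 0.11 ± 0.0622 (limma adjusted p = 0.179). It was called, at 0.18, after the GC content and length correction and without KO-WT replicate 1. Clones 1 and 1-4 alone, with 1 KO-WT library, also gave 0.18. The interaction was -0.18 (limma adjusted p = 0.356), so the effect of Lin28a loss on Aldoa was not shown to differ between Trim71 states. Loss of both genes gave 0.17 (limma adjusted p = 0.0352), a call lost in 10 of 31 alternatives, among them leaving out any 1 of the 4 WT-WT libraries or KO-KO replicate 1, 3, 4 or 5. Its relative Aldoc, the brain form, rose by 0.50 ± 0.124 with Trim71 intact (limma adjusted p = 0.00422) and differed by 0.23 without it, not called.

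Pgk1 and Pkm carry out the ATP-yielding steps of the lower pathway, and Eno1 sits between them as enolase. None of the 3 was called in any comparison of the main fit, with day and the 18 libraries. Pgk1 ranged from 11.34 to 11.49 in WT-WT, 11.26 to 11.73 in KO-WT, 11.29 to 11.56 in WT-KO and 11.22 to 11.51 in KO-KO, so all genotypes overlapped. Eno1 ranged from 13.57 to 13.76 in WT-WT, 13.72 to 13.92 in KO-WT, 13.78 to 13.95 in WT-KO and 13.69 to 13.87 in KO-KO. Pkm ranged from 14.10 to 14.29, 14.28 to 14.40, 14.22 to 14.36 and 14.21 to 14.35 in the same order. After Lin28a loss with Trim71 intact, 95% intervals ran from -0.23 to 0.14 for Pgk1, from 0.02 to 0.27 for Eno1 and from -0.03 to 0.19 for Pkm. Lin28a loss without Trim71 gave -0.16 ± 0.0869 for Pgk1 (limma adjusted p = 0.157), and without KO-WT replicate 3 it was -0.27 and called (limma adjusted p = 0.0125). Pkm was called after Trim71 loss with Lin28a intact, at 0.12, when all 19 libraries were fitted without day. After Lin28a loss with Trim71 intact Eno1 came closest to a call, at 0.14 ± 0.0583 (limma adjusted p = 0.0603), with all WT-KO libraries above all WT-WT libraries. It was called when day was left out of the fit, under either other scaling, and without WT-KO replicate 3 or KO-WT replicate 1.

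Ldha, which reduces pyruvate to lactate, was 12.56, 12.55, 12.39 and 12.52 in WT-WT and 12.76, 12.64, 12.48 and 12.53 in KO-WT. It was 12.32, 12.39, 12.31, 12.50 and 12.40 in WT-KO and 12.34, 12.18, 12.34, 12.46 and 12.38 in KO-KO. The KO-KO libraries lay below the KO-WT libraries, while WT-KO overlapped with WT-WT. Lin28a loss without Trim71 gave a fitted difference of -0.27 ± 0.0687 (limma adjusted p = 0.00549). Ldha was lower in 4 of 4 same-day pairs, but the pairs were uneven: it went from 12.76 to 12.18 on day 2 and from 12.48 to 12.46 on day 4. With Trim71 intact it was -0.12 ± 0.0687 (limma adjusted p = 0.177), and in clones 1 and 1-4 alone it was called, at -0.18 (limma adjusted p = 0.0136). Loss of both gave -0.16 (limma adjusted p = 0.0604) and was called in 6 of 31 alternatives, at -0.22 without WT-WT replicate 3. The call without Trim71 was lost in clones 1 and 1-4 alone (-0.16, with 1 KO-WT library) and over the 3 complete days (-0.16). The interaction was -0.15 (limma adjusted p = 0.476). Ldhb, the heart form of the enzyme, rose by 0.47 ± 0.0867 with Trim71 intact (limma adjusted p = 0.000414) and by 0.33 ± 0.0867 without it (limma adjusted p = 0.00554, lost in clones E3 and C1 alone). The log2 ratio of Ldha to Ldhb was -0.59 ± 0.19 in WT-KO and -0.44 ± 0.15 in KO-KO (SD, n = 5 each), and the lowest WT-WT library was at -0.15.

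Of the other isozymes, Eno3, the muscle enolase, rose by 0.22 and 0.18 with and without Trim71 (limma adjusted p = 0.0152 and 0.0454), the latter lost in 15 of 31 alternatives. Eno2 differed by -0.12 and -0.05, Eno1b by 0.17 and 0.22, Pklr by 0.10 and 0.20 and Ldhc by 0.06 and 0.00, all without a call. Eno1b resembles Eno1 closely enough that reads could be shared between them. Further copies of Aldoa and Pgk1 (Aldoart1, Aldoart2 and Pgk1-rs7) were below the filter, with a summed level of at most 16.4. How reads shared with copies were counted is not given in the sources used here.

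**Figure D3:**
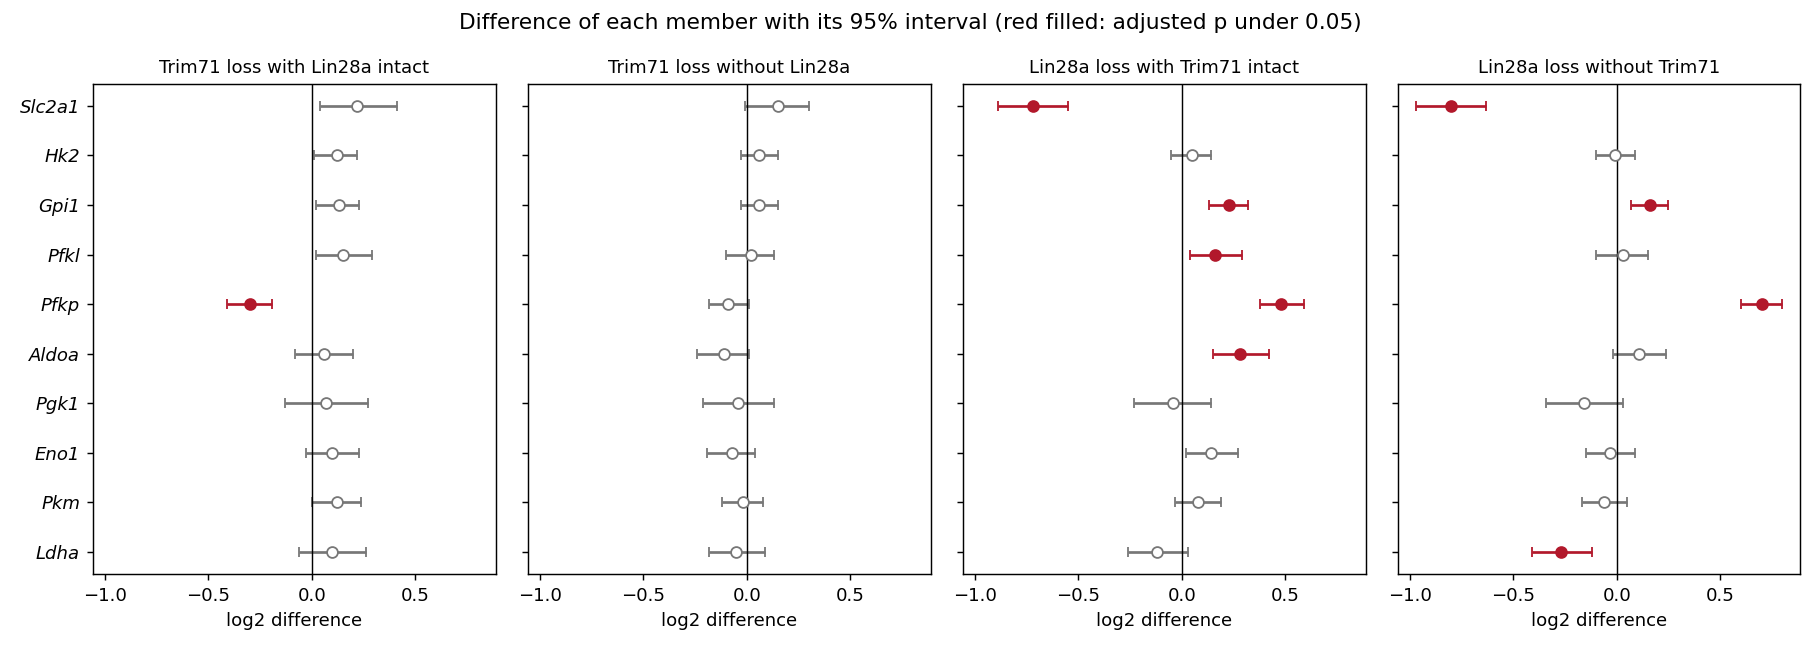
Log2 difference of each member under Trim71 loss and Lin28a loss, each with the other gene intact or absent; points are limma estimates, bars are 95% intervals and red marks an adjusted p under 0.05. Slc2a1 (-0.72 and -0.80) and Pfkp (0.48 and 0.70) stand out under Lin28a loss, and Pfkp alone is called under Trim71 loss with Lin28a intact (-0.30).

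Counted together, the members were called about as often as other genes. After Lin28a loss with Trim71 intact 5 of 10 were called, where 42.4% of all tested genes were. Of these 4 were higher (20.3% of genes) and 1 lower (22.0%). Without Trim71 4 of 10 were called, against 42.8%, with 2 higher (20.8%) and 2 lower (22.0%). Loss of both genes called 5 of 10, against 45.6%, with 4 higher (21.0%) and 1 lower (24.6%). Trim71 loss with Lin28a intact called 1 of 10, against 11.2%, with 0 higher (4.74%) and 1 lower (6.43%). In Lin28a-null cells it called 0 of 10, against 8.38%, of which 4.26% higher and 4.12% lower. For that count of 0, limma gave 0 members at an unadjusted p under 0.05, against 3413 of 14988 genes, and no other tool was run. The interaction called 0 of 10, against 0.0200% of genes (3 in all). Pfkp was the 1 member at an unadjusted limma p under 0.05, against 2256 of 14988 genes. Genotypes did not overlap for 6 members after Lin28a loss with Trim71 intact, against 40.8% of genes, and for 4 without Trim71, against 40.7%. The corresponding counts were 5 for loss of both (44.5%), 3 for Trim71 loss with Lin28a intact (28.2%) and 1 in Lin28a-null cells (12.6%). These shares are near those of all genes, so these counts do not set the members apart. The 8 member calls that held in every alternative were those of Slc2a1 and Pfkp for Lin28a loss with and without Trim71 and for loss of both, and those of Gpi1 for Lin28a loss with Trim71 intact and for loss of both.

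The median difference of the 10 members was 0.11 after Lin28a loss with Trim71 intact and -0.02 without Trim71, where the median of all genes was -0.01 and -0.00. The median was 0.11 after Trim71 loss with Lin28a intact and -0.03 in Lin28a-null cells. The mean level of the members was 12.09 ± 0.0474 for WT-WT and 12.17 ± 0.0918 for KO-WT (SD, n = 4 each). It was 12.15 ± 0.0546 for WT-KO and 12.14 ± 0.0674 for KO-KO (SD, n = 5 each). The libraries of all genotypes overlapped, but the KO-WT, WT-KO and KO-KO means lay above the highest WT-WT library, at 12.13. WT-WT is the control in 3 of the comparisons, so their values are not independent of each other: Slc2a1 gave 0.22, -0.72 and -0.58, and Pfkp -0.30, 0.48 and 0.40, for loss of Trim71, of Lin28a and of both.

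Within genotypes, 6 of the members moved together from library to library. After subtracting each genotype's mean, the 15 pairs among Pfkl, Aldoa, Pgk1, Eno1, Pkm and Ldha had a median Pearson r of 0.85 over 18 libraries, from 0.55 to 0.96, with Pfkl and Aldoa highest. The other 30 pairs had a median of 0.55, from -0.15 (Hk2 and Pfkp) to 0.80 (Slc2a1 and Ldha). Among these, Slc2a1 with the 6 genes ran from 0.57 (Pfkl) to 0.80, so it moved with them as well. The 6 genes were grouped after their values had been seen, and the libraries share days, clones and the removal of day effects, so this is a description. On day 4 the mean deviation of the 6 genes was -0.10 in WT-WT replicate 3 and -0.12 in KO-WT replicate 3. In WT-KO replicate 4 it was 0.12 and in KO-KO replicate 4 it was 0.10. On day 2 it was 0.14 in KO-WT replicate 1 and -0.10 in KO-KO replicate 2. Because day effects had been removed, deviations of same-day libraries balance each other, so opposite signs within a day follow in part from that removal. Such library differences are as large as several of the uncalled genotype differences above.

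The genes outside the lists whose levels followed the mean of the 10 members most closely over the 18 libraries were Pisd (Pearson r 0.861), Klf10 (0.856), Rac3 (0.848), Bcas2 (0.836) and Mrpl41 (0.831). These are the highest of all tested genes and are given as a description.

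Promoter windows of the members were read from RefSeq (GRCm38.p6), 250 bases before to 50 after a transcript start. The windows of 3 members are shown, chosen after the results: Slc2a1 and Pfkp, which moved in opposite directions, and Ldha, the 1 member with CACGTG. Capitals mark ACGTG on either strand, the core that HIF and the MYC and Mondo families share, and CACGTG, which contains it.
Slc2a1, chr4:119108495-119108794, plus strand: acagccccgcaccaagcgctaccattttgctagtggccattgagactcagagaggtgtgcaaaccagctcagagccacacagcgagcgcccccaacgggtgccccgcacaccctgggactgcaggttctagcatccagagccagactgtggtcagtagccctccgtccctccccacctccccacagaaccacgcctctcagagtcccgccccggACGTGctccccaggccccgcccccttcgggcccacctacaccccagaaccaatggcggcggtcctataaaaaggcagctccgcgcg
Pfkp, chr13:6648722-6649021, minus strand: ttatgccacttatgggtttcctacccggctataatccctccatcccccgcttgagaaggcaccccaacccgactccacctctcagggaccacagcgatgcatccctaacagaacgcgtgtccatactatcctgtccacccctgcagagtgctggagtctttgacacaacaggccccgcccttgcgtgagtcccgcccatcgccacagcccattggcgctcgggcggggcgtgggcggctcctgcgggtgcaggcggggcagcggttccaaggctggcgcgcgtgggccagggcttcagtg
Ldha, chr7:46845554-46845853, plus strand: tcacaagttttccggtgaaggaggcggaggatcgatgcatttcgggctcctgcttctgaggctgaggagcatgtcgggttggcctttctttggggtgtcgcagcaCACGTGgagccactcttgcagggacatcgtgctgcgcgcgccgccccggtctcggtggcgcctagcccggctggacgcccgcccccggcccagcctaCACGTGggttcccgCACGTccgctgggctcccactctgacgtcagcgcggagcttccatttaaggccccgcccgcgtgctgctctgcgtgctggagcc
ACGTG occurred in at least 1 window of 6 of 10 members (Slc2a1, Hk2, Aldoa, Pgk1, Pkm and Ldha), against 29.3% of 10497 tested genes with a window. Counted by window it was in 7 of 16, against 19.6% of 32851 windows of all genes, tested or not. GCGTG, the other form of the HIF core, was in 5 of 10 (Slc2a1, Pfkl, Pfkp, Eno1 and Ldha) against 55.8% of genes, and CACGTG in 1 of 10 against 11.8%. Both strands were searched, the windows hold no more than 300 bases, and a match says nothing of binding. The Slc2a1 window holds 1 ACGTG and 1 GCGTG, and the Pfkp window holds 0 and 4.

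The wider pathway was followed in 8 lists, and the marker levels given with Slc2a1 differ along with these too, a part that was not tested. Their counts are to be read against all tested genes, of which 20.3% were called higher and 22.0% lower after Lin28a loss with Trim71 intact, and 20.8% and 22.0% without Trim71. Of 26 other glycolysis genes 21 were tested. After Lin28a loss with Trim71 intact, 6 rose and 4 fell, with a median of 0.07, and without Trim71 3 rose and 5 fell, with a median of 0.03. Hkdc1, a hexokinase-like gene, fell by 1.06 and 1.11 (limma adjusted p = 2.75e-05 and 1.61e-05), but its level of 2.51 to 4.36 sat near the filter and it passed through the Lin28a-intact libraries. Bsg, the chaperone of lactate carriers, fell by 0.24 and 0.34. Gapdh rose by 0.16 with Trim71 intact (limma adjusted p = 0.0155) and differed by 0.03 without it.

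Several genes that act around phosphofructokinase changed. Of 17 tested side-branch genes (fructose 2,6-bisphosphate, glycogen, glycerol, hexosamine and serine branches) 6 rose and 4 fell with Trim71 intact, and 4 rose and 2 fell without it. Pfkfb3, which makes the allosteric activator fructose 2,6-bisphosphate, fell by 1.38 ± 0.114 with Trim71 intact and by 1.02 ± 0.114 without it (limma adjusted p = 1.31e-07 and 3.29e-06). Its relative Pfkfb2 rose by 0.48 and 0.77. Glycogen phosphorylase Pygm rose by 0.76 and 0.87, and glycogen synthase Gys1 by 0.62 and 0.55. Of 5 tested gluconeogenesis genes 2 rose and 2 fell in either comparison. Fbp2 fell by 1.22 and 1.15 and Fbp1 by 0.79 and 0.88, both fructose bisphosphatases that work against phosphofructokinase, at group means of 3.29 to 5.08 close to the filter. Pck2, the mitochondrial PEP carboxykinase, rose by 0.78 and 0.78.

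Beyond pyruvate, of 13 genes that gate pyruvate entry to mitochondria 3 rose and 2 fell with Trim71 intact, and 2 rose and 4 fell without it. The pyruvate carrier subunit Mpc1 fell by 0.55 and 0.43. Of 16 TCA cycle genes 5 rose and 1 fell, and 4 rose and 2 fell. Sucla2, a succinyl-CoA ligase subunit, fell by 0.49 with Trim71 intact. Of 7 tested pentose phosphate genes 1 rose and 1 fell, and 1 rose and 3 fell. Rpia, ribose 5-phosphate isomerase, fell by 0.64 and 0.64, the latter call lost in clones 1 and 1-4 alone, which hold 1 KO-WT library.

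The regulators moved in mixed directions. Of 21 tested HIF factors and targets outside glycolysis 1 rose and 6 fell with Trim71 intact, and 4 rose and 8 fell without it. P4ha2, a collagen prolyl hydroxylase, had the largest falls of the list, by 1.18 and 1.31, and its relative P4ha1 fell by 0.82 and 0.85. Ddit4, a stress-induced inhibitor of mTORC1, fell by 0.72 and 0.93, and Egln3, a HIF prolyl hydroxylase, by 0.78 and 0.90. Ndrg1, a stress-induced gene, fell by 0.79 and 0.74, while Vegfa, the vascular growth factor, rose by 0.34 and 0.57. Hif1a itself differed by 0.01 with Trim71 intact, not called, and rose by 0.21 without it. Of 10 MYC, Mondo and Txnip genes 2 rose and 4 fell, and 3 rose and 5 fell. Myc fell by 0.64 ± 0.142 and 0.67 ± 0.142 (limma adjusted p = 0.00188 and 0.0013), the former lost in clones E3 and C1 alone.

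Txnip, a glucose-responsive inhibitor of glucose uptake, moved in opposite directions with the 2 losses. Mean levels were 12.36 ± 0.0557 for WT-WT and 12.96 ± 0.147 for KO-WT (SD, n = 4 each), then 11.81 ± 0.133 for WT-KO and 12.15 ± 0.126 for KO-KO (SD, n = 5 each). Trim71 loss raised it by 0.60 ± 0.0898 with Lin28a intact and by 0.34 ± 0.0769 in Lin28a-null cells (limma adjusted p = 0.000999 and 0.0128), and both calls were lost in clones E3 and C1 alone. The first was also lost when the Lin28a-null libraries were left out, and the second over the 3 complete days. Lin28a loss changed it by -0.55 and -0.81 (limma adjusted p = 7.53e-05 and 1.41e-06). Epas1, the HIF2 alpha subunit, rose by 0.53 and 0.56 after Trim71 loss (limma adjusted p = 0.00656 and 0.00108), the former lost with only clones E3 and C1 or only Lin28a-intact libraries.

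Trim71 loss with Lin28a intact called 11.2% of all genes. It called 4 of 21 HIF genes, 2 of 10 regulators, 2 of 13 pyruvate gate genes, 2 of 16 TCA cycle genes, 1 of 7 pentose phosphate genes, 1 of 21 other glycolysis genes, 1 of 17 side-branch genes and 0 of 5 gluconeogenesis genes. For the count of 0, limma gave 0 at an unadjusted p under 0.05, against 4376 of all 14988 genes. In Lin28a-null cells, where 8.38% of all genes were called, the counts in the same order were 2, 1, 1, 0, 1, 1, 3 and 0. At an unadjusted limma p under 0.05 stood 1 TCA cycle gene (Cs) and 2 gluconeogenesis genes (Pck2 and Fbp1), against 3413 of all 14988 genes. Vegfa rose by 0.23 in Lin28a-null cells (limma adjusted p = 0.0404), a call lost in 18 of 31 alternatives. The interaction called 0 genes in each of the 8 lists. At most 4 genes of a list, the side branches with 17 tested, had an unadjusted limma p under 0.05. Of all 14988 genes 2256 did.

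**Figure D4:**
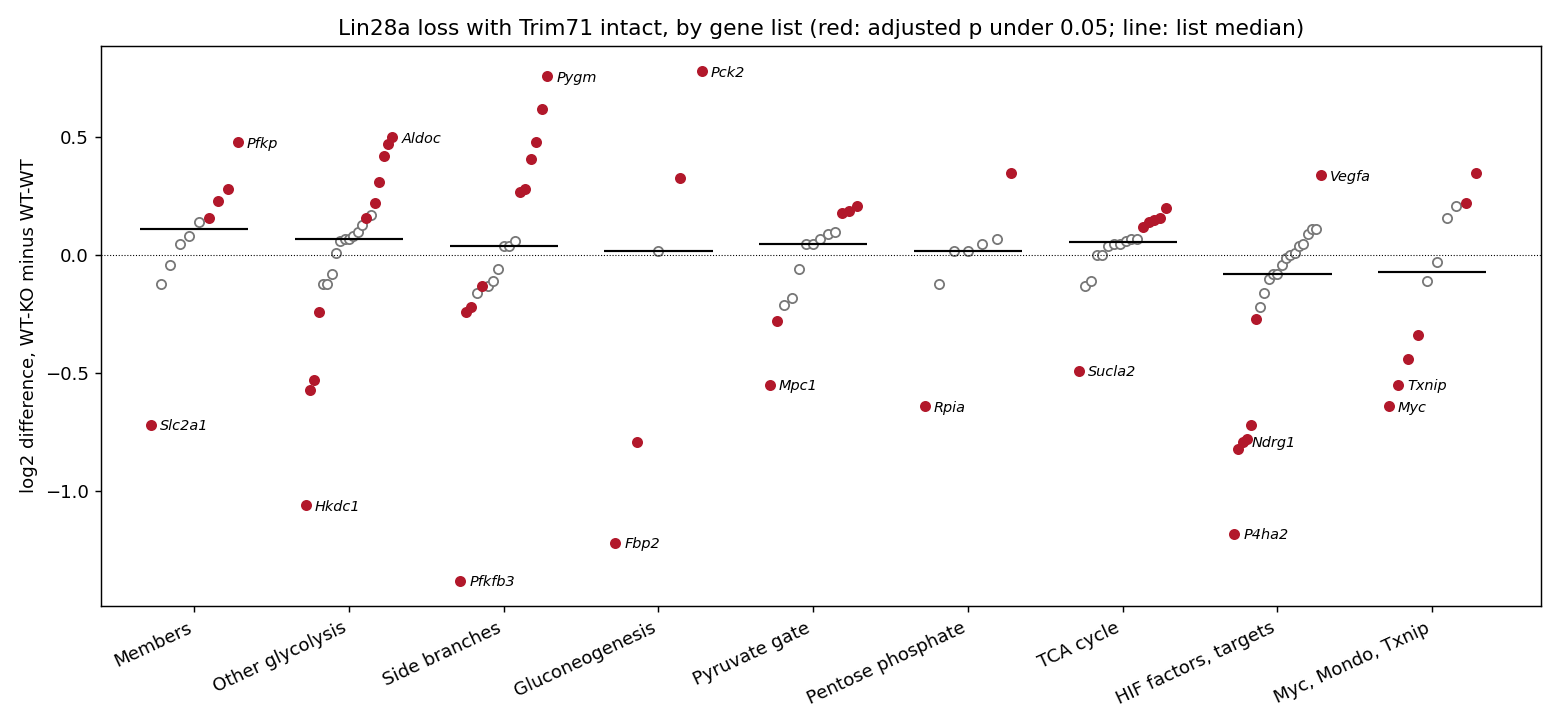
Log2 difference of each tested gene in the members and the 8 lists after Lin28a loss with Trim71 intact; points are genes ordered by value within a list, red marks an adjusted p under 0.05 and lines are list medians. Medians lie between -0.08 and 0.11 while single genes reach -1.38 (Pfkfb3) and 0.78 (Pck2).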

How the data were processed

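Messenger RNA of 19 libraries was sequenced in pairs of reads after TRIzol extraction and TruSeq preparation, per the labels' protocols. The submitters' processing notes name CASAVA 1.8, STAR and DESeq2, and the build, annotation and counting tool are not given in the sources used here. The deposited values are log2 normalised expression, from -0.71 upwards with 4126 below 0, so they are not counts, depth is unknown and no count test was run. Harvest day effects had been removed from the deposited log2 values, so day was kept in the fit to keep the residual degrees of freedom (10) honest. All 19 columns matched a sample, and 18 libraries were used.

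The 14988 genes with a linear value (2 raised to the deposited value) of 10 or more in at least 4 libraries were fitted with genotype and day as terms in limma 3.58.1 (R 4.3.3; moderated variances with a trend on level) and Benjamini-Hochberg adjustment over all tested genes. Same-day libraries were paired because the labels give the harvest day. The 2-sided limma test covered 5 differences and the interaction, and the script was tested on simulated data. Tables and plots were made with Python 3.11.15, pandas 2.3.3 and matplotlib 3.10.9. Alternatives numbered 14, of which 1 left out each of the 18 libraries in turn.

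The members and lists were chosen with earlier results of these data known. Named were all 10 members, their isozymes, up to 3 called genes with the largest difference from each list in each comparison, and the 5 genes outside the lists most like the mean of the members. Slc2a8, Bsg, Gapdh, Hif1a, Cs and the markers are given beyond that rule, after their values had been seen. A gene the rule names in 1 comparison is also given in others. Not every gene the rule names is reported here.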

Additional observations from a re-analysis of the deposited data

Results flagged for a closer look

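In 3 of 40 groups of libraries (10 members in 4 genotypes) 1 library stood far from the others of its genotype, where chance gives about 1 in 20. Pfkp was 11.04 in WT-KO replicate 4 and 10.96 to 10.97 in the other 4 WT-KO libraries. Aldoa was 13.01 in WT-WT replicate 3 and 13.10 to 13.12 in the other WT-WT libraries. Eno1 was 13.57 in that same library and 13.73 to 13.76 in the others.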

How the results depend on the processing

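Of 15 called member differences 8 kept their call in every alternative tried and 0 reversed. Reversals were limited to differences without a call, with a smallest limma adjusted p of 0.358. The number of members called after Trim71 loss with Lin28a intact was 5 without the day term (no replicate block) and 6 with all 19 libraries and no day term. Of all tested genes these settings called 4219 of 14988 and 5162 of 14992, against 1674 in the main fit. No member was called with clones E3 and C1 only or in the 2 genotypes alone, where 10 and 30 of 14988 genes were called. With a library left out the number was 1 to 2 (2 without KO-WT replicate 3, where 613 genes were called). In clones E3 and C1 alone it was 3 for Lin28a loss with Trim71 intact and 3 for loss of both, where 2323 and 2668 of 14988 genes were called. Leaving out a library gave 3 to 6 for loss of both (3 without WT-WT replicate 4 or KO-KO replicate 5, where 5869 and 6116 genes were called). The interaction called 1 member (Pfkp) with no replicate block, with 18 or 19 libraries, where 673 and 1295 of all tested genes were called. The block pairs libraries by day. Fits without it count degrees of freedom that the removal of day effects had used, and KO-WT replicate 5 adds no new information. Clones alone and the 3 days hold fewer libraries, and clones 1 and 1-4 alone hold 1 KO-WT library. The cause of other changes was not tested.

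Reversed after Trim71 loss with Lin28a intact were Aldoa (-0.0351 with the GC content and length trend removed, -0.0312 in clones 1 and 1-4), Eno1 (-0.0354) and Ldha (-0.0196) in those clones, and Pgk1 (-0.00086 over the 3 complete days and in the 2 genotypes alone). In Lin28a-null cells they were Pgk1 (0.0427 in clones 1 and 1-4) and Pkm (0.00885 over the 3 days). For Lin28a loss with Trim71 intact Pgk1 gave 0.00845 with clones E3 and C1 and 0.0155 over the 3 days. Without Trim71, Hk2 gave 0.00428 and Eno1 0.0376 over the 3 days, Eno1 0.0307 with GC content and length removed and 0.0664 in clones 1 and 1-4, Pkm 0.00465 in those clones, and Ldhc -0.00152 with a pseudocount of 10 and -0.0916 in those clones. The interaction in those clones was 0.0878 for Slc2a1, 0.0360 for Gpi1, 0.0424 for Pgk1 and 0.0144 for Ldha.

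Leaving out a library gave, after Trim71 loss with Lin28a intact, -0.0126 to 0.187 for Pgk1. In Lin28a-null cells it gave -0.0129 to 0.0592 for Pfkl, -0.0985 to 0.0143 for Pgk1, -0.0495 to 0.00522 for Pkm and -0.0874 to 0.0156 for Ldha. For Lin28a loss without Trim71 it gave -0.0388 to 0.0196 for Hk2, -0.0428 to 0.0932 for Pfkl, -0.0673 to 0.0236 for Eno1 and -0.123 to 0.0570 for Ldhc, and with Trim71 intact -0.0590 to 0.152 for Ldhc. The interaction of Slc2a1 ran from -0.147 to 0.0319. Depth is unknown, so no limit from counting can be given.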
